A study of Mus musculus with 4 samples.

Results

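The genes described here are 36 mouse stress genes of the unfolded protein response, the amino acid response and the heat-shock response, read in cultured synovial fibroblasts. They were chosen by name, as genes known for these responses, and each took the probe sets that name it and no other gene. They were grouped here into 4 branches, and a place in a branch is not a measured dependence on the factor that names it. There are 13 chaperones and folding enzymes of the endoplasmic reticulum (ER), 4 genes around XBP1 and ER-associated degradation, 10 genes of the ATF4 and amino acid branch and 9 heat-shock genes. Of the 36 genes, 35 were measured, out of 12393 genes named on the array. Hsp90ab1, a cytosolic HSP90, had no probe set that names it alone and is not analysed here. A gene with several probe sets took the one with the highest mean log2 signal, and 74 probe sets name 1 of these genes. The probe sets used for Canx, Hyou1, Hspe1, Trib3 and Hspa8 are of kinds that may match several transcripts.

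When unfolded proteins collect in the ER, the sensors IRE1, PERK and ATF6 raise chaperones, degradation factors and the transcription factor XBP1, and slow protein synthesis. PERK and the amino acid sensor GCN2 both phosphorylate eIF2alpha, which favours translation of ATF4, and ATF4 in turn raises ATF3, CHOP (the product of Ddit3) and enzymes of amino acid supply. In the cytosol and mitochondria, the factor HSF1 raises HSP70 and its partners. Synovial fibroblasts secrete much matrix and, when inflamed, cytokines and proteases, so their ER carries a large folding load.

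The cells came from knee joints of naive DBA/1J male mice aged 8 to 12 weeks, were passaged 3 to 4 times, and were held in medium with 1% serum in 60 mm dishes. For 6 h a dish received IL-1beta with indomethacin and iloprost (below, the iloprost dish), IL-1beta with indomethacin (the indomethacin dish), IL-1beta alone (the IL-1beta dish) or vehicle (the vehicle dish). IL-1beta, a cytokine of joint inflammation, was given at 5 ng/ml, and indomethacin, which blocks the cyclooxygenases, and iloprost, a stable prostacyclin analogue, at 1 uM each. Each treatment has 1 Affymetrix array, so the spread between dishes is unknown, no difference was tested and no p-value is given.

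Values are signals, the deposited linear intensities without a unit, and signals below a floor of 37.6 were read as that floor. A log2 ratio is given relative to the median gene, that is, after taking off the median log2 ratio of the 6227 genes at or above the floor on all 4 arrays. A gene is called higher or lower past 1.5-fold, a log2 ratio of 0.58 or -0.58. Probe sets of the same gene differed in their log2 ratio with an SD per probe set between 0.20 and 0.22 over the 6 comparisons, and between 0.24 and 0.26 at mean signals under 150. That spread covers the measurement within an array and leaves out differences between dishes.

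The dishes held RNA of fibroblasts and of macrophages. All 12 fibroblast markers reached the floor, with a summed signal of 30414.9 in the iloprost dish, 29193.4 in the indomethacin dish, 31488.7 in the IL-1beta dish and 29629.3 in the vehicle dish. All 13 macrophage markers reached it too, with sums of 26735.2, 27631.4, 32814.8 and 28108.5 in the same order of dishes. None of 6 endothelial and 7 lymphocyte markers measured did, with highest signals of 17 and 12. The cytokine gene Il6, a check of the IL-1beta label, read 3616.9, 3495.9 and 4757.2 in the 3 dishes with IL-1beta, in the same order, against 311.8 in the vehicle dish. In such mixed RNA, fewer cells of a type and less RNA per cell cannot be told apart.

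Most of the 35 stress genes differed little between the dishes, and 8 of them, or 22.9%, passed 1.5-fold in at least 1 of the 6 comparisons, where 26.1% of the 7148 genes compared on the array did. The stress genes as a set were thus not called more often than other genes. Those 8 were Ddit3, Atf3, Casp12, Chac1 and Sesn2 of the ATF4 branch and Hsph1, Hspa1a and Hspa1b of the heat-shock branch. None of the 13 ER chaperones and none of the 4 genes around XBP1 passed it in any comparison on the probe set used. Of their other probe sets, 2 of 11 for the ER chaperones (Canx and Hyou1) and 1 of 8 around XBP1 (Xbp1) passed it in at least 1 comparison. The highest signal of a gene over its lowest had a median of 1.32 among the ER chaperones, 1.34 around XBP1, 1.58 in the ATF4 branch and 1.45 among the heat-shock genes.

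**Figure D1:**
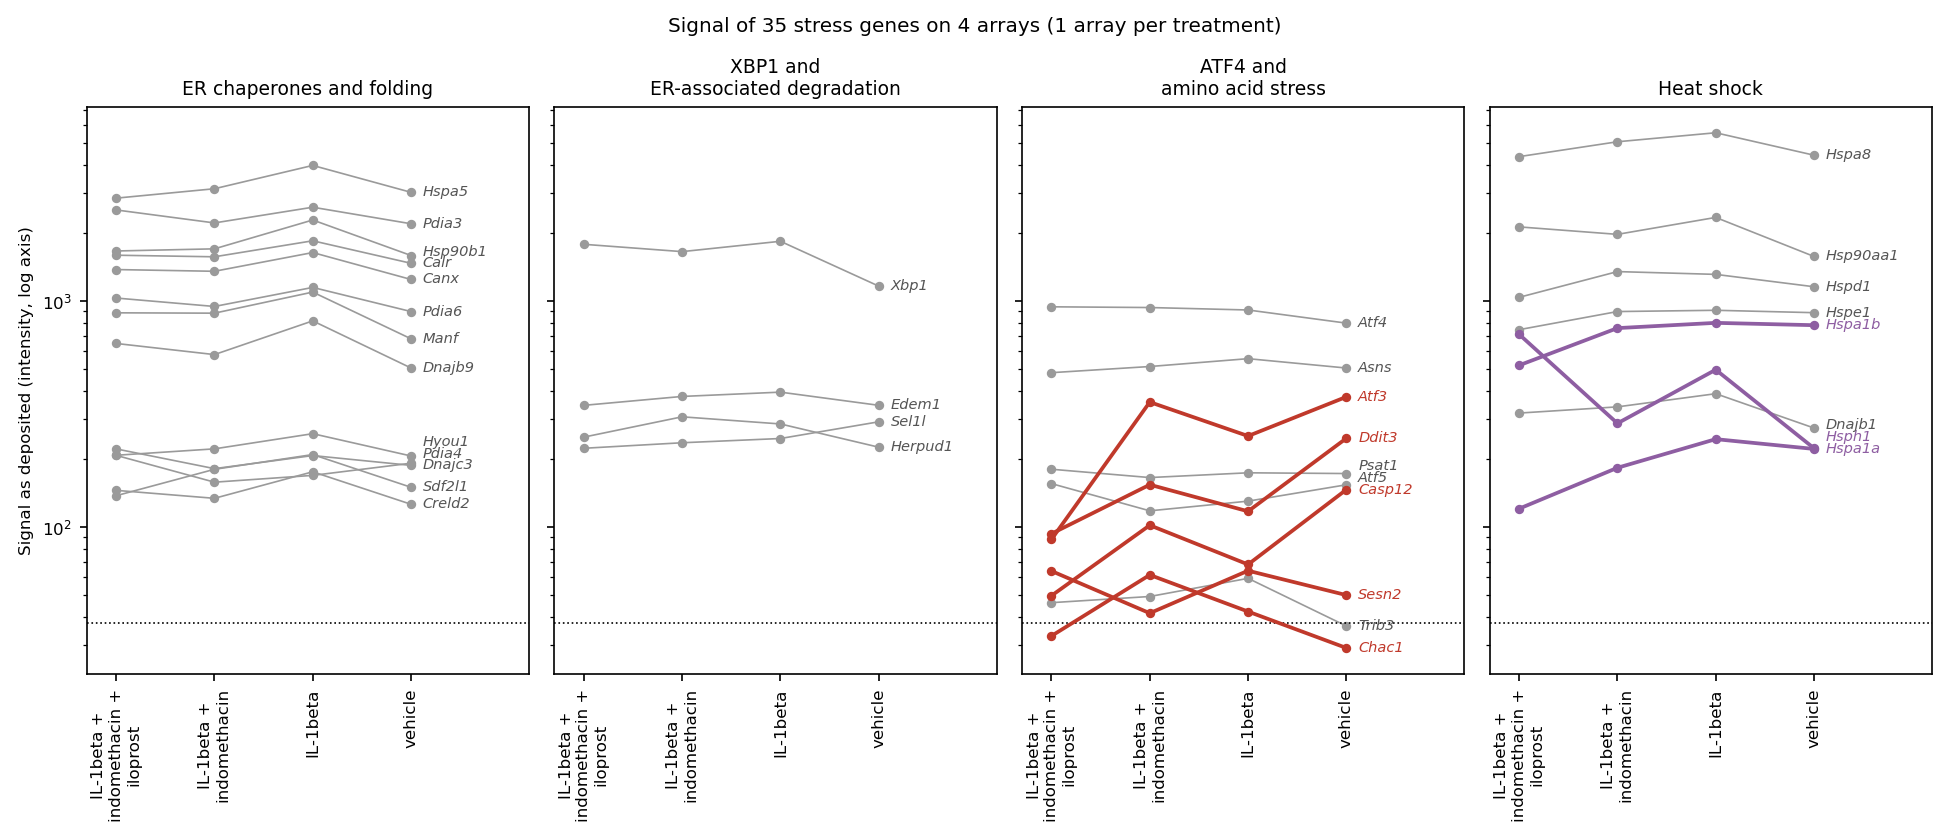
Signal as deposited (intensity, log axis) of the 35 stress genes in the 4 dishes, with 1 panel a branch, 1 point a dish, lines joining the points of a gene, genes past 1.5-fold in any comparison in colour, a dotted line at the floor of 37.6, and no error bars as each dish has 1 array. The points of Atf3, Ddit3, Casp12 and Hsph1 lie far apart, while those of each ER chaperone lie within 1.62-fold of each other.

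Against vehicle, IL-1beta alone gave 1 higher gene of 35, Hsph1, where 4.65% of all genes compared were higher, and 3 lower genes, Ddit3, Atf3 and Casp12, where 3.89% were lower. The 3 lower genes are 8.57% of the 35. All 3 are in the ATF4 branch as grouped here. At 2-fold, 0 genes were higher and Ddit3 and Casp12 were lower, against 1.72% and 0.56% of all genes. The IL-1beta array was brighter as a whole, by a log2 of 0.23 for the median gene, and without taking that off, 5 stress genes were higher and 2 lower, while over all genes the split was 745 higher and 78 lower in place of 324 and 271.

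Indomethacin beside IL-1beta, against IL-1beta alone, gave 3 higher genes, Atf3, Chac1 and Casp12, or 8.57% of the 35, where 1.64% of all genes were higher. Only Hsph1 was lower among the 35, where 2.35% of all genes were. At 2-fold no stress gene was called in either direction, against 0.245% of all genes higher and 0.663% lower. The 3 higher calls are small ones, with log2 ratios between 0.65 and 0.72. Without taking off the median gene, which stood at -0.15, they all fell short of the threshold, 0 stress genes were higher and 2 were lower (Sesn2 and Hsph1), and all genes split into 49 higher and 338 lower in place of 114 and 163.

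Iloprost beside IL-1beta and indomethacin, against IL-1beta and indomethacin, gave 2 higher genes, Sesn2 and Hsph1, and 5 lower ones, Ddit3, Atf3, Chac1, Casp12 and Hspa1a. The shares of the 35 genes were 5.71% higher and 14.3% lower, where 7.83% and 7.18% of all genes were. At 2-fold, Hsph1 was higher, and Atf3 and Casp12 were lower, against 1.97% and 3.19% of all genes. The median gene differed by a log2 of only 0.01 here, and the same 7 stress genes were called without taking it off. Of the 13 macrophage markers, 4 were also lower in this comparison (Fcgr1 at -1.46, Adgre1 at -0.77, Cybb at -0.75 and Aif1 at -0.74), 1 was higher (Cd14 at 0.62), and their median log2 ratio was -0.16. The same 4 markers were lower in the iloprost dish against the IL-1beta and vehicle dishes, and none of the 13 was called with IL-1beta against vehicle or with indomethacin against IL-1beta. Fibroblast markers differed too. With IL-1beta against vehicle, 9 of the 12 lay below the median gene, with a median of -0.16, and Fap and Pdgfrb were called lower, at -0.76 and -0.59. With indomethacin against IL-1beta, Fap was called higher, at 0.60, and with iloprost against indomethacin none of the 12 was called. The part of either marker list in the calls of the stress genes was not tested.

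The remaining comparisons reuse the same arrays. The iloprost dish against the IL-1beta dish had Hsph1 higher and Atf3 and Hspa1a lower, where 5.13% and 5.91% of all genes were, and at 2-fold only Atf3 was lower and 0 stress genes were higher, against 2.37% and 0.965% of all genes. The indomethacin dish against the vehicle dish had Chac1 higher and Ddit3 and Casp12 lower, where 3.44% and 2.91% of all genes were, with 0 calls at 2-fold, where 1.29% of all genes were higher and 0.323% lower. The iloprost dish against the vehicle dish had Hsph1 higher and Ddit3, Atf3, Casp12, Hspa1a and Hspa1b lower, out of 34 genes compared, where 7.66% and 7.59% of all genes were. At 2-fold, Hsph1 was higher and Ddit3, Atf3 and Casp12 lower in that comparison, against 2.72% and 3.35% of all genes. Without taking off the median gene, all genes split into 200 higher and 613 lower in place of 362 and 417 in the first of these comparisons, 304 and 130 in place of 234 and 198 in the second, and 726 and 433 in place of 535 and 530 in the third.

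**Figure D2:**
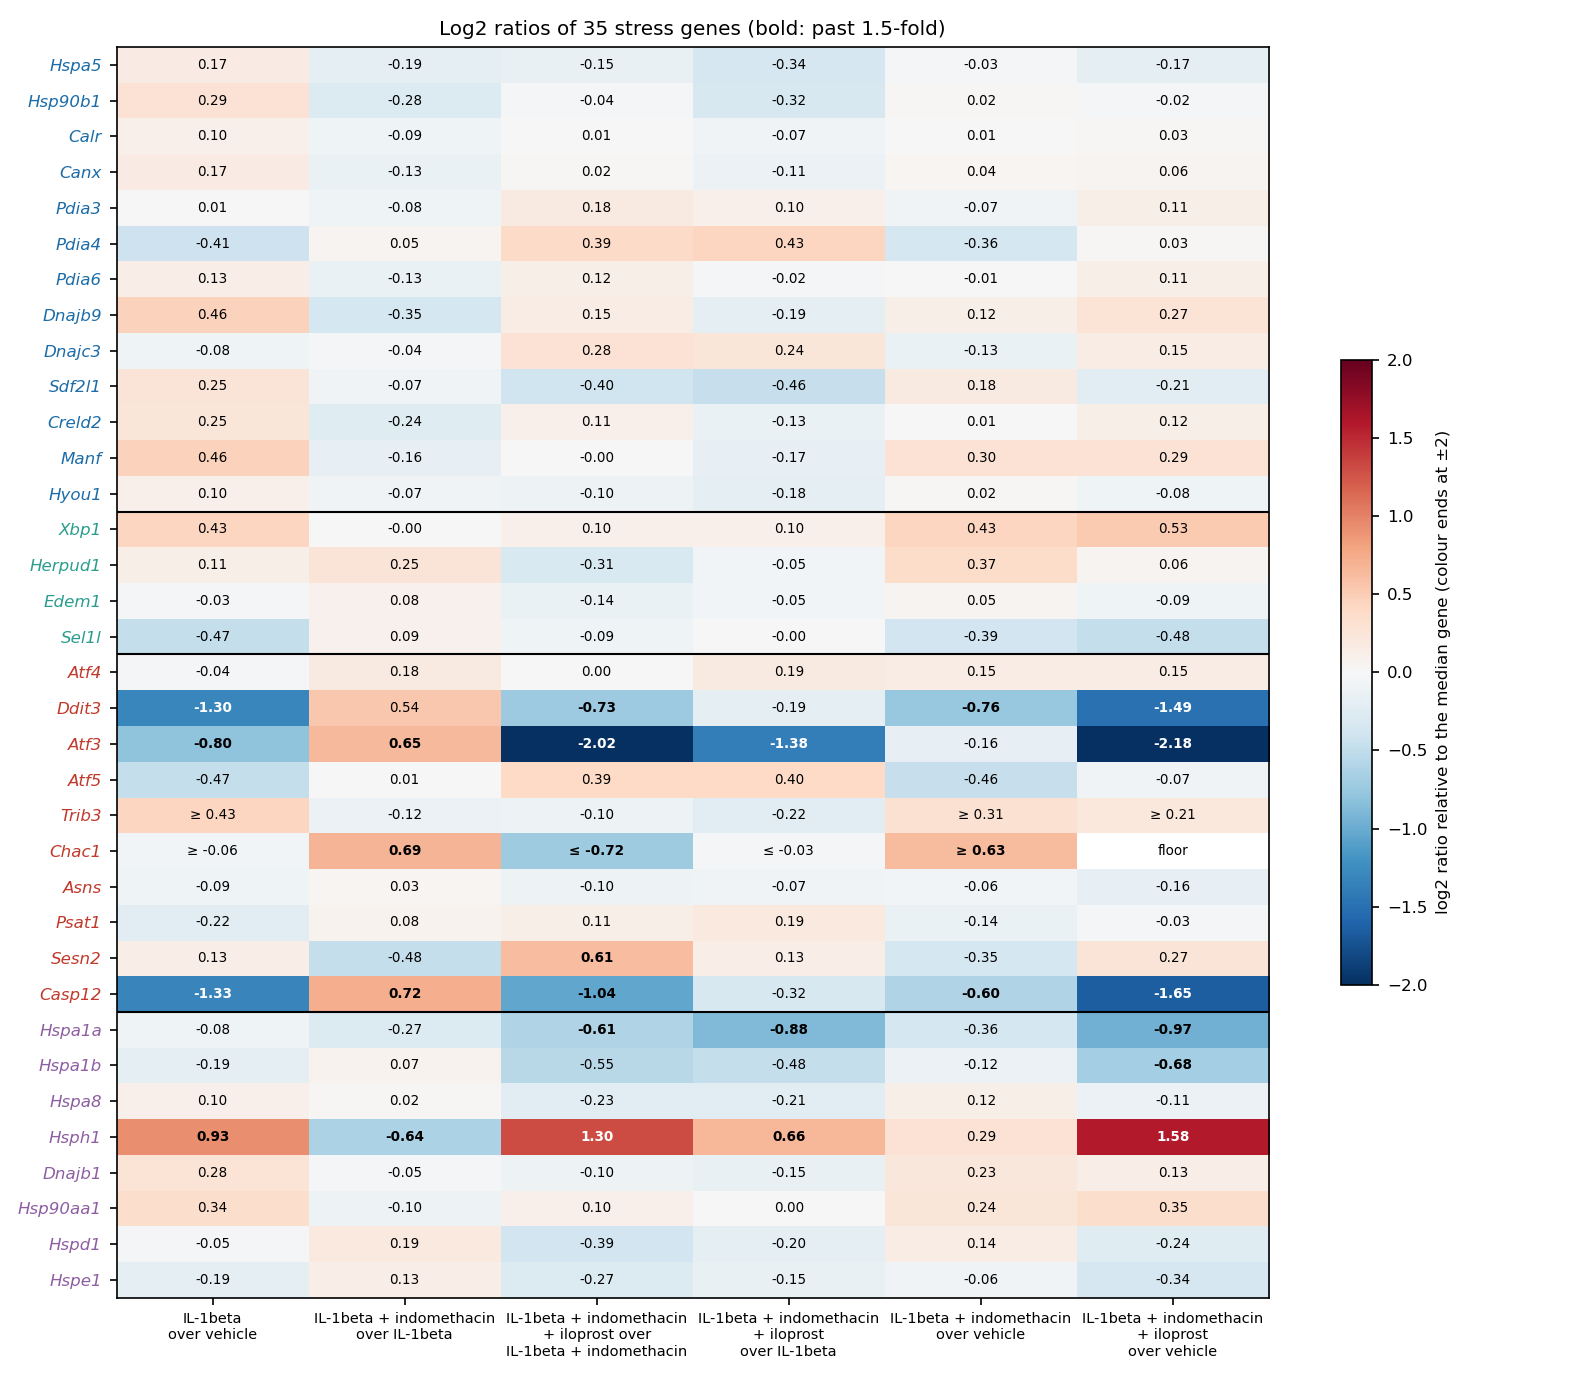
Map of log2 ratios relative to the median gene, with the 35 stress genes as rows in 4 branches split by lines, the 6 comparisons as columns, red for higher, blue for lower, bold for values past 1.5-fold and the word floor where both arrays are below the floor. No value of the ER chaperones or of the genes around XBP1 is bold, and the deepest colours are those of Atf3, Ddit3, Casp12 and Hsph1.

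**Figure D3:**
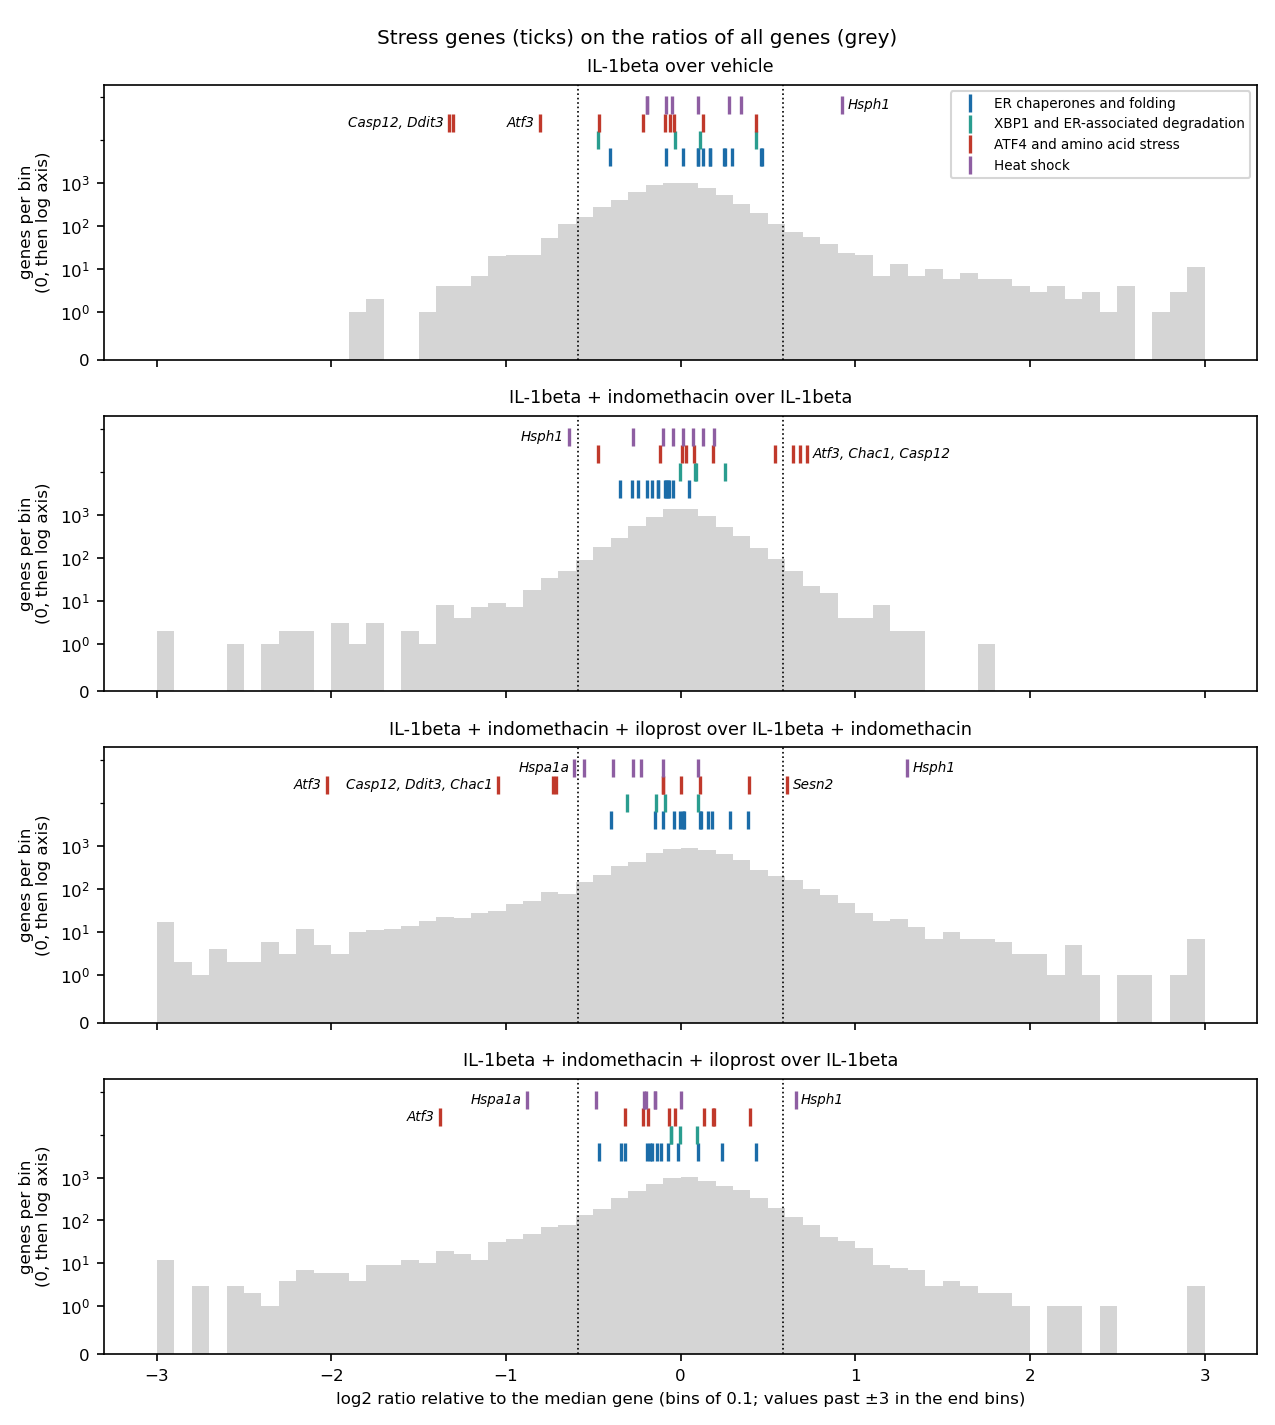
Log2 ratios relative to the median gene in 4 comparisons, with the stress genes as ticks coloured by branch above a grey histogram of all genes compared (genes per bin, log axis) and dotted lines at 1.5-fold. Most ticks lie in the bulk of the histogram, with Ddit3 and Casp12 at the low end with IL-1beta against vehicle and Atf3 far below the bulk with iloprost against indomethacin.

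The ER chaperones carry the plainest regulatory sequence of the unfolded protein response, the ER stress element (ERSE), which ATF6 and NF-Y are known to bind. It is spelled CCAAT, 9 bases of any kind, then CCACG. Both strands of the 250 bases before each RefSeq start (GRCm38.p6) were searched, where 31 of the 36 genes have an entry. Hspa8, Hsp90aa1, Hsp90ab1, Hyou1 and Manf have none and were not searched. The ERSE was found in 7 of the 31, all of them among the 11 ER chaperones with an entry. In the annotation, 37 of 32817 promoters hold it (0.113%). The genes were chosen as known targets of this response, and a match is a description of the letters, not a measured site. The promoter of Hspa5, the gene of the chaperone BiP, is shown whole, since BiP is the usual readout of ER stress. It lies at chr2:34771840-34772089 on the plus strand, and the capitals mark the match.
Hspa5: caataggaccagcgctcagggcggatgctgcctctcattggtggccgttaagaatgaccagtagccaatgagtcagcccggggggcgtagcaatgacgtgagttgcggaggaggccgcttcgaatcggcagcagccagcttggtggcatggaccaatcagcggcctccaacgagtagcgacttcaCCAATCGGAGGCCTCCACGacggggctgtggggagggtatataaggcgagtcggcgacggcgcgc
The other 6 matches are shown with 10 bases on each side, so that the conserved ends can be set side by side. Hsp90b1, which holds a match on each strand, is shown from 1 match to the other, and in Hsp90b1, Calr and Creld2 a match on the opposite strand reads as CGTGG, 9 bases, then ATTGG. They lie at chr10:86705523-86705666 on the minus strand (Hsp90b1), chr8:84847065-84847103 on the minus strand (Calr), chr11:50325790-50325828 on the minus strand (Canx), chr12:17266481-17266519 on the plus strand (Pdia6), chr14:118937817-118937855 on the plus strand (Dnajc3) and chr15:88819510-88819548 on the plus strand (Creld2).
Hsp90b1: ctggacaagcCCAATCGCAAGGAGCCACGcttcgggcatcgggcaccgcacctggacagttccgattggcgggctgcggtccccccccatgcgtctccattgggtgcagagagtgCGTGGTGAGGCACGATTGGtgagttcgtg
Calr: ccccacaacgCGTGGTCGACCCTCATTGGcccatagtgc
Canx: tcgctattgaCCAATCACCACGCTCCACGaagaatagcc
Pdia6: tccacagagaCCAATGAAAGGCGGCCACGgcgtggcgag
Dnajc3: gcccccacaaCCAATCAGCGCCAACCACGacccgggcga
Creld2: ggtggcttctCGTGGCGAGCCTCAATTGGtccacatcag

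The signals of these chaperones differed little between dishes. Hspa5 read 2840.4 in the iloprost dish, 3126.1 in the indomethacin dish, 3963.0 in the IL-1beta dish and 3013.9 in the vehicle dish. Its log2 ratio was -0.15 for iloprost against indomethacin, -0.19 for indomethacin against IL-1beta and 0.17 for IL-1beta against vehicle, where the noise SD at mean signals of 150 or more was 0.15 to 0.17. Hsp90b1, the ER form of HSP90, read 1659.1, 1695.8, 2274.5 and 1584.6 in the same order. Its signal was highest in the IL-1beta dish and differed little among the other 3, and the log2 ratio was 0.29 for IL-1beta against vehicle.

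Among the 13, the highest ratios for IL-1beta against vehicle were those of Dnajb9, a BiP cochaperone, and Manf, a secreted ER stress protein, both at 0.46. Dnajb9 read 647.4 in the iloprost dish, 578.1 in the indomethacin dish, 814.7 in the IL-1beta dish and 504.3 in the vehicle dish, and Manf read 884.3, 881.2, 1092.2 and 678.7. Both fell short of 1.5-fold, and both passed it on the scale as deposited. The lowest ratio was that of Pdia4, a disulfide isomerase, which read 207.3, 157.8, 169.1 and 191.4 in the same order, a log2 ratio of -0.41 for IL-1beta against vehicle and 0.39 for iloprost against indomethacin. Sdf2l1, which works with BiP, was at -0.40 for iloprost against indomethacin, the lowest of the 13 there. For iloprost against IL-1beta Sdf2l1 was at -0.46, short of 1.5-fold, and it was called lower there on the scale as deposited. The remaining chaperones are the lectins Calr and Canx, the disulfide isomerases Pdia3 and Pdia6, the BiP partners Dnajc3 and Hyou1, and Creld2. Their highest signals were between 1.18 and 1.39 times their lowest. Other probe sets of Canx, Hyou1, Hspa5 and Dnajc3 gave larger ratios. Dim ones were at -0.83 for iloprost against indomethacin and 0.96 for indomethacin against vehicle for Canx, and at most -0.79 for indomethacin against IL-1beta and at most -1.06 for indomethacin against vehicle for Hyou1. For IL-1beta against vehicle, the second probe set of Hspa5 was at 0.46, and 3 further ones of Dnajc3 were at 0.32, 0.37 and 0.44, where the one used was at -0.08.

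As a branch the ER chaperones had a median log2 ratio of 0.17 for IL-1beta against vehicle, with 11 of 13 above the median gene, where the median over all genes was -0.02. For indomethacin against IL-1beta the median was -0.13, with 12 of 13 below the median gene, against 0.00 over all genes. These comparisons share the IL-1beta array, so they are not separate observations, and the noise SD of a single probe set at mean signals of 150 or more was 0.17 and 0.15 in them. Of the 13, 8 have a mean signal of 500 or more, and all 8 were above the median gene in the IL-1beta dish against vehicle, as were 54.6% of the 1234 genes of that brightness. For iloprost against indomethacin the branch was at 0.02, with 8 of 13 above the median gene and values between -0.40 and 0.39. In the indomethacin dish against the vehicle dish it was at 0.02, and in the iloprost dish at 0.06.

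Around XBP1, the transcription factor gene itself was higher in each dish with IL-1beta than with vehicle, short of 1.5-fold. Xbp1 read 1776.0 in the iloprost dish, 1648.4 in the indomethacin dish, 1831.4 in the IL-1beta dish and 1160.5 in the vehicle dish. The log2 ratios against vehicle were 0.53, 0.43 and 0.43 in that order, and the first and the last of these passed 1.5-fold on the scale as deposited. Of its other 3 probe sets, each was also highest in the IL-1beta dish, with ratios of 0.41, 0.41 and 0.79 against vehicle. Probe sets of this kind do not tell the IRE1-spliced form of the Xbp1 transcript from the unspliced one, so the level says nothing about splicing.

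The 3 degradation genes went different ways. Sel1l, the scaffold of the HRD1 ubiquitin ligase, read 222.8 in the iloprost dish, 235.7 in the indomethacin dish, 246.1 in the IL-1beta dish and 291.7 in the vehicle dish. On this probe set it was highest with vehicle, with log2 ratios against vehicle of -0.48, -0.39 and -0.47. The other 3 probe sets of Sel1l did not keep that order, and for the iloprost dish against vehicle they were at 0.03, 0.08 and 0.32, so the order of dishes for Sel1l depends on the probe set. Herpud1, an ER membrane protein that helps degradation, read 249.6, 306.9, 285.4 and 225.3 in the same order, and Edem1, which leads misfolded glycoproteins to degradation, read 344.9, 377.6, 394.5 and 345.0. Herpud1 had ratios of 0.25 for indomethacin against IL-1beta and -0.31 for iloprost against indomethacin, and Edem1 stayed between -0.14 and 0.08 in all 6 comparisons. Second probe sets differed, with Herpud1 at 0.44 and -0.49 for those comparisons and Edem1 at -0.32 for IL-1beta against vehicle and 0.32 for iloprost against IL-1beta. The branch medians lay between -0.11 and 0.21.

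Of the 4 genes with the widest range of signals, 3 were grouped here in the ATF4 branch (Atf3, Casp12 and Ddit3). Their highest signals were 4.26, 2.94 and 2.64 times the lowest, and the other gene is the heat-shock gene Hsph1, at 3.19. The grouping was made with earlier results of these data known, so this count only describes the list, and a response of the branch was not tested. Atf4 itself, the transcription factor at the head of the branch, read 940.1 in the iloprost dish, 933.2 in the indomethacin dish, 910.2 in the IL-1beta dish and 796.2 in the vehicle dish. Its log2 ratio was 0.00 for iloprost against indomethacin, 0.18 for indomethacin against IL-1beta and -0.04 for IL-1beta against vehicle. A second probe set above the floor, at 359.0, 386.8, 546.6 and 291.2, went another way, at -0.12, -0.35 and 0.68 for the same comparisons, the last of these past 1.5-fold. The probe sets thus disagree on Atf4 in the IL-1beta dish. ATF4 is controlled mainly at translation, which an RNA level does not show.

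ATF4 is known to bind the CEBP-ATF response element (CARE), spelled here TGATGNAAN. It was found on either strand of the 250 bases before the start of 3 of the 10 genes of this branch, Atf3, Chac1 and Asns, and of Herpud1, 4 of the 31 genes with an entry, against 3.44% of all promoters. The promoters of Atf3 and Chac1, the genes with a match that passed 1.5-fold, are shown whole. They lie at chr1:191183334-191183583 on the minus strand and at chr2:119350992-119351241 on the plus strand, with the matches in capitals. Ddit3, Casp12 and Sesn2 also passed 1.5-fold and hold no match, and a link between match and signal was not tested. Asns and Herpud1 are shown with 10 bases on each side, at chr6:7693214-7693242 on the minus strand and chr8:94386306-94386334 on the plus strand. In Atf3, Chac1 and Herpud1 the match is on the opposite strand, so the capitals end in CATCA, the reverse complement of TGATG.
Atf3: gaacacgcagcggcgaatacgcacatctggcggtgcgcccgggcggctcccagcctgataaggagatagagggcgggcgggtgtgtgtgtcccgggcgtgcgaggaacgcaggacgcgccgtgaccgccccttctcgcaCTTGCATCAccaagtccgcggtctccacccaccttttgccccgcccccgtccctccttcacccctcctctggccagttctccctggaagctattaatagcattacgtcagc
Chac1: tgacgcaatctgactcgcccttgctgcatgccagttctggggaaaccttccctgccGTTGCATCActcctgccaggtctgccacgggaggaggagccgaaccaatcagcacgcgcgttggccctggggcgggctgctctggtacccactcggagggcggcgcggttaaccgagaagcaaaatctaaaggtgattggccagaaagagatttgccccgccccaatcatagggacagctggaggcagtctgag
Asns: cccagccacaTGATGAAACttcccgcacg
Herpud1: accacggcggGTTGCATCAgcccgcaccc
The palindromic cAMP response element TGACGTCA, which CREB binds, and TGACGTGG, the core of the element that XBP1 and ATF6 bind, were found in 0 of the 31 genes, against 1.55% and 0.564% of all promoters. Having no match says only that these letters are not in these windows.

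Atf3, a transcription factor gene induced by many stresses, was lowest in the iloprost dish. It read 88.2 in the iloprost dish, 356.5 in the indomethacin dish, 252.4 in the IL-1beta dish and 376.0 in the vehicle dish. The iloprost dish was 4.07-fold lower than the indomethacin dish, a log2 ratio of -2.02, and this was the 46th lowest of 6416 genes above the floor on both arrays. It was also below the IL-1beta dish, at -1.38, and below the vehicle dish, at -2.18. The indomethacin and vehicle dishes differed by -0.16, and the IL-1beta dish lay below both, at -0.80 against vehicle, with the indomethacin dish at 0.65 against the IL-1beta dish. On the scale as deposited, the ratios for IL-1beta against vehicle and for indomethacin against IL-1beta fell short of 1.5-fold, while the differences from the iloprost dish kept their calls.

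Ddit3, which encodes the transcription factor CHOP, was highest with vehicle. It read 93.4 in the iloprost dish, 153.8 in the indomethacin dish, 117.3 in the IL-1beta dish and 246.7 in the vehicle dish. The log2 ratio was -1.30 for IL-1beta against vehicle, 2.46-fold lower and the 7th lowest of 6436 genes. For iloprost against indomethacin it was -0.73, and the indomethacin dish, at 0.54 against the IL-1beta dish, fell short of a call there. Against vehicle the indomethacin dish was at -0.76 and the iloprost dish at -1.49. All 3 dishes with IL-1beta were thus past 1.5-fold below vehicle, also as deposited.

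Casp12, the gene of a caspase at the mouse ER, had the same order of dishes as Ddit3. It read 49.7 in the iloprost dish, 101.8 in the indomethacin dish, 68.3 in the IL-1beta dish and 146.3 in the vehicle dish. The log2 ratio was -1.33 for IL-1beta against vehicle, 2.51-fold lower and the 6th lowest of 6436 genes. It was 0.72 for indomethacin against IL-1beta and -1.04 for iloprost against indomethacin. A second probe set kept that order of dishes, at 52.8, 78.2, 58.6 and 117.2, with ratios of -1.23 for IL-1beta against vehicle, 0.56 for indomethacin against IL-1beta and -0.58 for iloprost against indomethacin, the last 2 of these short of 1.5-fold. Its signals are dim, where the noise SD is largest, and on the scale as deposited the calls for indomethacin against IL-1beta and against vehicle were lost.

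Chac1, which encodes an enzyme that degrades glutathione, lay near the floor. It read 33.0 in the iloprost dish, 61.4 in the indomethacin dish, 42.3 in the IL-1beta dish and 29.2 in the vehicle dish, and the first and the last of these are below the floor. The indomethacin dish was the highest of the 4, at 0.69 against the IL-1beta dish and at least 0.63 against the vehicle dish, and the iloprost dish was at most -0.72 against it. The call against the IL-1beta dish was lost on the scale as deposited. Sesn2, a stress-induced regulator of mTORC1, read 63.9 in the iloprost dish, 41.6 in the indomethacin dish, 64.1 in the IL-1beta dish and 50 in the vehicle dish. Its ratio was 0.61 for iloprost against indomethacin. A second probe set near the floor, at 33.8, 38.5, 26.0 and 39.4, did not follow it, with a ratio of at most -0.04. Atf3, Ddit3 and Chac1 have no second probe set.

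The other genes of the branch were called in no comparison. Asns, the asparagine synthetase gene and a standard target of the amino acid response, read 480.9 in the iloprost dish, 512.0 in the indomethacin dish, 554.6 in the IL-1beta dish and 504.2 in the vehicle dish, with ratios between -0.16 and 0.03. Psat1, an enzyme of serine synthesis, read 180.0, 165.4, 173.6 and 172.3 in the same order. These genes of amino acid supply thus varied little, by 1.15-fold and 1.09-fold between their highest and lowest signals on the probe sets used. Atf5, a transcription factor related to ATF4, read 155.5, 117.9, 130.1 and 153.7, a ratio of 0.39 for iloprost against indomethacin and -0.47 for IL-1beta against vehicle. Trib3, a pseudokinase gene induced by CHOP, lay near the floor at 46.3, 49.3, 59.3 and 36.5, the last of these below it. Its ratio for IL-1beta against vehicle was at least 0.43, a bound that may lie past 1.5-fold, and it was called higher on the scale as deposited. A second probe set of Trib3 was at 0.01 in that comparison.

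The branch median was -0.15 for IL-1beta against vehicle, 0.13 for indomethacin against IL-1beta and -0.10 for iloprost against indomethacin, and the first 2 of these turned sign on the scale as deposited, to 0.07 and -0.02. With IL-1beta against vehicle 8 of the 10 genes were counted below the median gene, as were 3699 of 6965 genes on the array. The 8 include Chac1, whose ratio is a bound of at least -0.06 and may lie above it.

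Of the heat-shock genes, Hsph1 stood apart and was highest in the iloprost dish. Hsph1 encodes HSP110, a nucleotide exchange factor of HSP70. It read 710.3 in the iloprost dish, 287.1 in the indomethacin dish, 495.6 in the IL-1beta dish and 222.8 in the vehicle dish. The log2 ratio was 1.30 for iloprost against indomethacin, 2.46-fold higher and the 49th highest of 6416 genes, -0.64 for indomethacin against IL-1beta and 0.93 for IL-1beta against vehicle. A second probe set read 507.7, 202.3, 490.0 and 234.8, with ratios of 1.32, -1.13 and 0.83 for the same comparisons. Both probe sets put the iloprost and IL-1beta dishes above the other 2. They differed for the iloprost dish against the IL-1beta dish, at 0.66 and 0.19, and in sign for the indomethacin dish against the vehicle dish, at 0.29 and -0.30. The call against the IL-1beta dish was also lost on the scale as deposited.

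The inducible HSP70 genes were lowest in the iloprost dish. Hspa1a read 120.5 in the iloprost dish, 182.7 in the indomethacin dish, 244.5 in the IL-1beta dish and 221.3 in the vehicle dish. Its log2 ratio was -0.61 for iloprost against indomethacin, -0.88 against IL-1beta and -0.97 against vehicle. Hspa1b read 518.4, 756.9, 798.5 and 779.7 in the same order, with ratios for the iloprost dish of -0.55, -0.48 and -0.68 against the other 3. Its other 2 probe sets were at -0.50 and -0.49 for iloprost against indomethacin. They were at -0.24 and -0.27 for the iloprost dish against the IL-1beta dish. Against the vehicle dish, the only call of Hspa1b, they were at -0.22 and -0.47, short of 1.5-fold. These genes are near-identical copies and probe sets for either may read both, so they are not separate observations.

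Hspa8, the constitutive HSP70, read 4334.0 in the iloprost dish, 5042.1 in the indomethacin dish, 5525.9 in the IL-1beta dish and 4397.5 in the vehicle dish, with ratios between -0.23 and 0.12. Another probe set of Hspa8 was not as flat, at 1238.1, 1280.2, 1987.4 and 1146.2 in the same order, with 0.57 for IL-1beta against vehicle, -0.49 for indomethacin against IL-1beta and -0.54 for iloprost against IL-1beta. The mitochondrial chaperonin genes Hspd1 (HSP60) and Hspe1 (HSP10) were lower with iloprost than with indomethacin by less than 1.5-fold. Hspd1 read 1035.3, 1345.3, 1307.7 and 1153.0, a ratio of -0.39 for iloprost against indomethacin, and Hspe1 read 744.9, 895.8, 907.4 and 885.6, a ratio of -0.27. Both genes start from a shared stretch, which is the only place among the promoters of the 31 genes with a heat-shock element, spelled as GAA, TTC and GAA, or TTC, GAA and TTC, each block 2 bases from the next. In all, 0.466% of promoters hold it. Of the 9 heat-shock genes 6 have an entry, so Hspa8, Hsp90aa1 and Hsp90ab1 were not searched. For a gene that was searched, no match says only that these letters are not in its window. In the shared stretch 2 matches overlap, at chr1:55088049-55088086 on the plus strand, with Hspe1 read forwards.
Hspe1: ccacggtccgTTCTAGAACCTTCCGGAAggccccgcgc
Hsp90aa1, the inducible cytosolic HSP90, read 2120.3, 1965.1, 2334.6 and 1569.1, and Dnajb1, an HSP40 partner of HSP70, read 318.8, 339.6, 388.3 and 273.8. These were lowest with vehicle, with log2 ratios for IL-1beta against vehicle of 0.34 and 0.28 on the probe sets used. In that comparison the other probe sets of Hsp90aa1 were at -0.01 and 0.29, so its ratio depends on the probe set. The second probe set of Dnajb1 was at 0.31. For iloprost against indomethacin 6 of the 8 heat-shock genes lay below the median gene, with a branch median of -0.25, so Hsph1 at 1.30 went against most of its branch. Over all genes 3159 of 6990 lay below it, and of the 1234 genes with a mean signal of 500 or more 42.1% lay above it. The 6 include Hspa1a and Hspa1b, which are not separate observations.

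The ratios of IL-1beta against vehicle and of iloprost against indomethacin share no array. Across the 33 stress genes above the floor on all 4 arrays they correlated with r of 0.63 and rho of 0.36, and across 6227 genes of the array with r of 0.19 and rho of 0.10. The figure for the stress genes rests on Atf3, Ddit3, Casp12 and Hsph1, since r was -0.01 over the other 29 genes. Of the 33 genes, 20 had the same sign in both comparisons (60.6%), as had 52.9% of all genes. Genes read on the same arrays are not independent, and no test was made.

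The sensors and the wider pathways were read from 4 longer lists that hold none of the genes above. Of 25 stress sensors and regulators 22 had a probe set, and Hsf1 is not analysed here. With IL-1beta against vehicle 1 of 19 was higher and 1 lower, 5.26% each beside 4.65% and 3.89% of all genes. With iloprost against indomethacin 2 of 20 were higher and 2 lower, 10% each beside 7.83% and 7.18% of all genes. Ern1, which encodes IRE1, was below the floor on all 4 arrays. Eif2ak3, which encodes PERK, read 135.5 in the iloprost dish, 101.1 in the indomethacin dish, 107.3 in the IL-1beta dish and 82.3 in the vehicle dish, and passed 1.5-fold in the iloprost dish against vehicle only, at 0.63. Atf6 read 52.5, 76.0, 72.0 and 64.7 in the same order and was called in no comparison. Ddit4, a stress-induced inhibitor of mTORC1, read 852.7 in the iloprost dish, 227.1 in the indomethacin dish, 818.3 in the IL-1beta dish and 333.3 in the vehicle dish. That is the order of Hsph1 in that the iloprost and IL-1beta dishes were both above the other 2, with ratios of 1.90 for iloprost against indomethacin, -1.70 for indomethacin against IL-1beta and 1.07 for IL-1beta against vehicle. Eif2ak2, which encodes the eIF2alpha kinase PKR and is induced by interferon, read 169.2, 508.1, 502.0 and 506.0, lower in the iloprost dish alone, at -1.59 against indomethacin. Gadd45a, a growth arrest gene, read 117.2, 170.4, 135.7 and 193.5, at -0.74 for IL-1beta against vehicle. Creb3l2, an ER-bound transcription factor gene, was at 0.95 for iloprost against indomethacin, and Nupr1, a stress-induced chromatin protein gene, at -0.65.

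Of 37 other ER folding, translocation and degradation genes 33 had a probe set. None was called with IL-1beta against vehicle or with indomethacin against IL-1beta, out of 32 compared in each, and 2 of 31 were higher with iloprost against indomethacin, 6.45% where 7.83% of all genes were. Those were Edem2, a mannosidase-like degradation factor, and Ero1b, an oxidase that drives disulfide formation. Edem2 read 197.1 in the iloprost dish, 95.2 in the indomethacin dish, 146.5 in the IL-1beta dish and 85.0 in the vehicle dish, and its ratio was 1.04 for iloprost against indomethacin, with Ero1b at 0.61. The list medians were 0.09, -0.03 and 0.09 in the order IL-1beta against vehicle, indomethacin against IL-1beta and iloprost against indomethacin, so this longer list also stayed close to the median gene.

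Of 37 amino acid enzymes, transporters and tRNA synthetases 32 had a probe set, and 28 were compared. With IL-1beta against vehicle 3 were higher, all of them transporters, or 10.7% of the 28 where 4.65% of all genes were. They were Slc7a11, the cystine transporter, Slc7a2, a carrier of arginine and lysine, and Slc38a2, a carrier of small neutral amino acids, at 2.08, 0.83 and 0.64. Slc7a11 read 422.4 in the iloprost dish, 239.6 in the indomethacin dish, 423.1 in the IL-1beta dish and 85.4 in the vehicle dish, at 0.81 for iloprost against indomethacin and -0.67 for indomethacin against IL-1beta. Slc7a5, a carrier of large neutral amino acids, read 45.4, 76.3, 39.9 and 41.9, a ratio of 1.08 for indomethacin against IL-1beta and highest in the indomethacin dish as Chac1 was. With iloprost against indomethacin Slc7a5 was lower, and so was Mthfd2, a mitochondrial folate enzyme. These are 7.14% of the 28, close to the 7.18% of all genes that were lower. The higher share there was 3.57%, beside 7.83% of all genes. With indomethacin against IL-1beta 3.57% were higher and 3.57% lower, beside 1.64% and 2.35% of all genes. No enzyme of serine synthesis and no tRNA synthetase was called in these 3 comparisons, and the list medians were -0.05 with IL-1beta, 0.09 with indomethacin and -0.15 with iloprost.

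Of 36 other cytosolic and mitochondrial chaperones 35 had a probe set. With IL-1beta against vehicle 2 were higher, Bag3 and Dnajb6, with indomethacin against IL-1beta only Fkbp4 was higher, and with iloprost against indomethacin Bag3 was higher and Dnaja2 and Ahsa1 were lower. The higher share of 5.71% with IL-1beta stands beside 4.65% of all genes, and the lower share of 5.71% with iloprost beside 7.18%, so neither is far from all genes. Fkbp4 alone is 2.86% of the 35, where 1.64% of all genes were higher with indomethacin. With iloprost Bag3 alone is also 2.86%, where 7.83% of all genes were higher. Bag3, an HSP70 cochaperone of selective autophagy, read 430.8 in the iloprost dish, 268.5 in the indomethacin dish, 412.8 in the IL-1beta dish and 226.4 in the vehicle dish, again with the iloprost and IL-1beta dishes above the other 2. Ahsa1, which activates HSP90, read 421.8, 676.0, 703.3 and 699.2, and Dnaja2, an HSP40, read 329.3, 524.4, 669.2 and 556.7. Both were lowest in the iloprost dish, as the inducible HSP70 genes were, with ratios of -0.69 and -0.68 against indomethacin. The list medians were 0.03, 0.01 and -0.07 in the same order of comparisons.

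**Figure D4:**
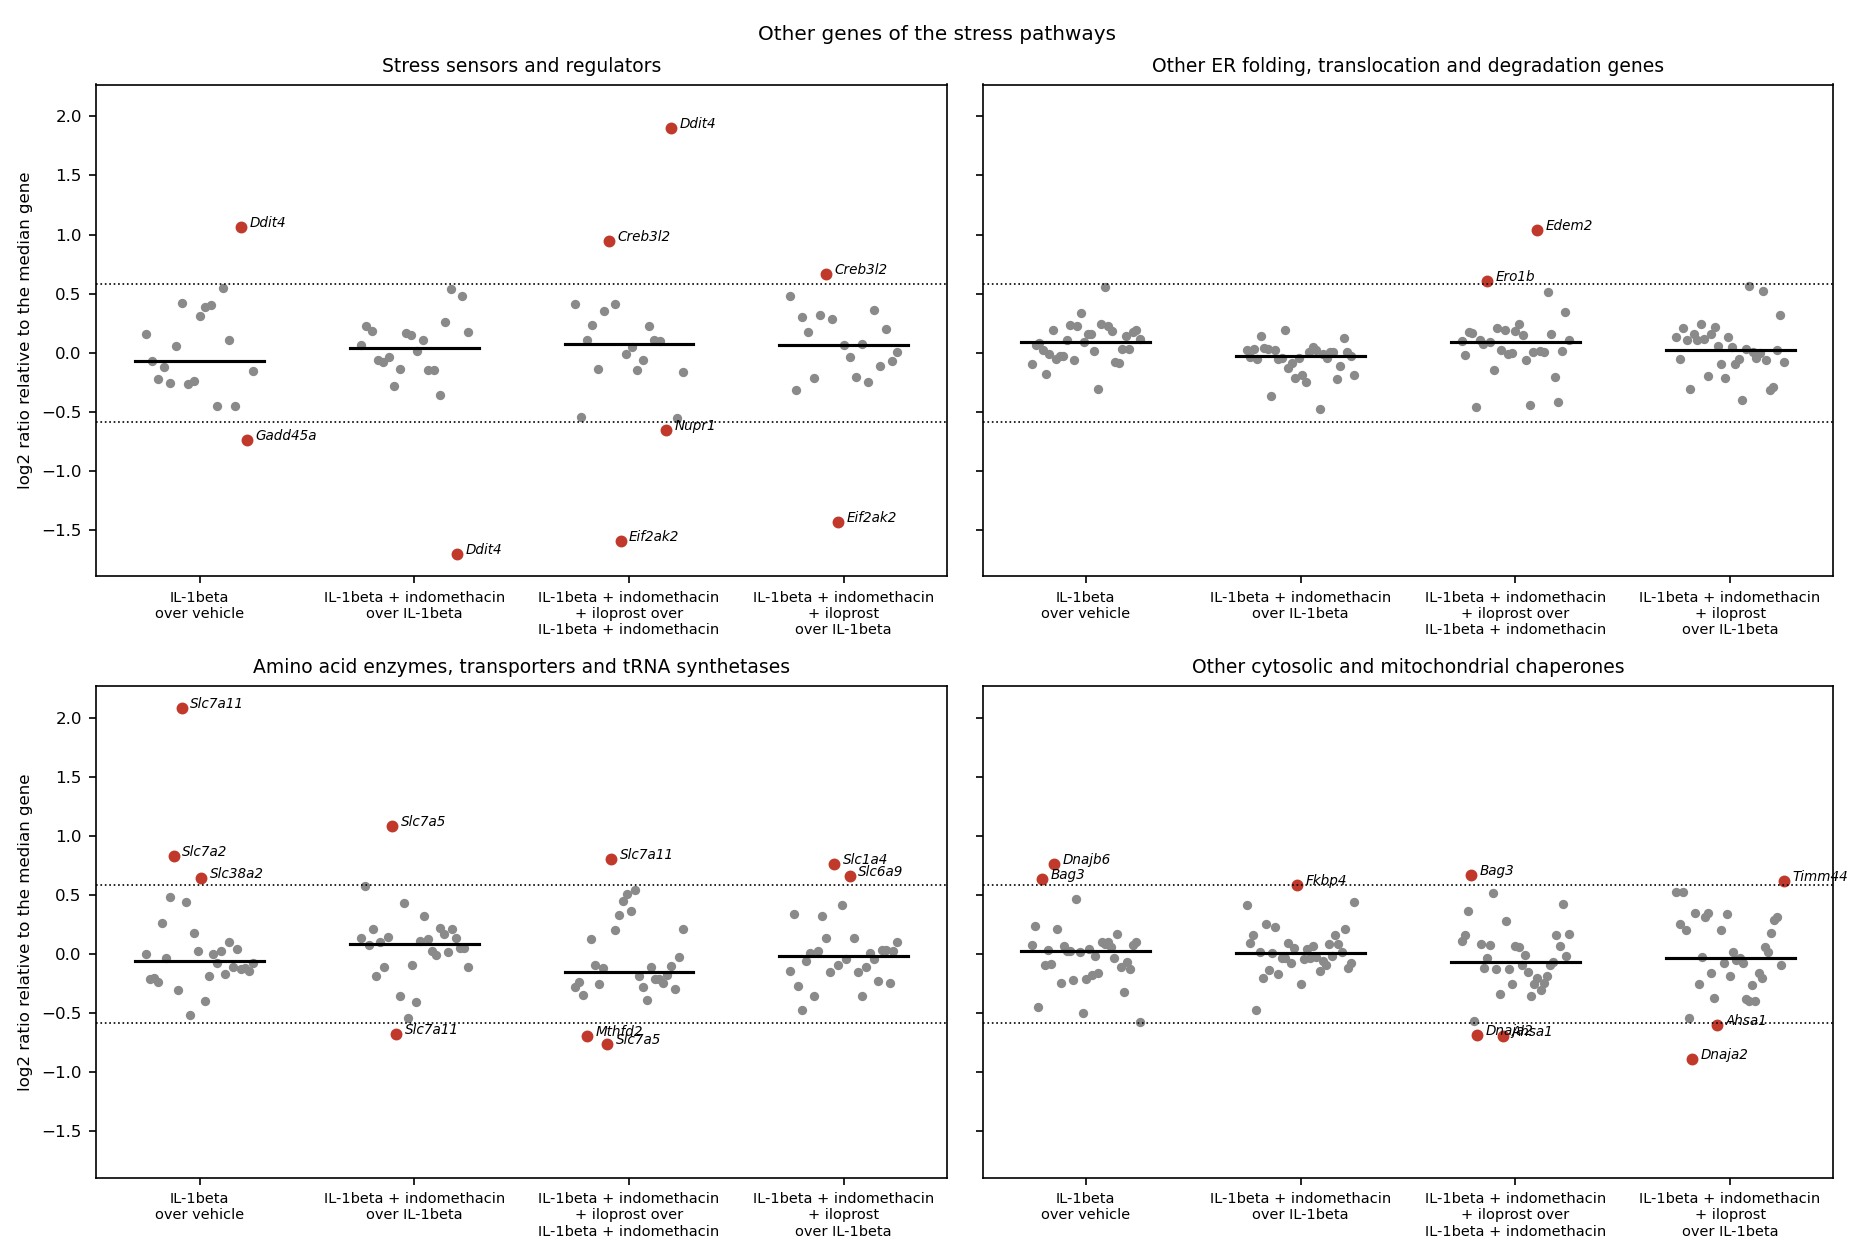
Log2 ratios relative to the median gene of the genes in the 4 longer lists, with 1 panel a list, 1 point a gene, a bar at the median of each of 4 comparisons, dotted lines at 1.5-fold and genes past it in red. Medians lie within 0.15 of the median gene, and Slc7a11, Ddit4 and Eif2ak2 lie furthest out.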

How the data were processed

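RNA of 4 dishes was hybridised to 4 1-colour Affymetrix arrays, per the labels. The authors deposited an intensity for each probe set and array on a linear scale. The software, background correction and scaling were not given in the sources used here. Probe sets were named through the platform annotation (20380 of 22690 name 1 gene, 691 name several and 1606 none). Signals below the 50th percentile of all values, 37.6, were set to it, log2 was taken, and the median gene was taken off each log2 ratio. A ratio with 1 array below the floor is a bound. With 1 array a treatment there are no tests, and precision is limited by how few arrays there are. Scripts were tested on simulated data with Python 3.11.15, numpy 2.4.6 and pandas 2.3.3. Promoters come from the RefSeq table of GRCm38.p6. The genes, lists and thresholds were chosen with earlier results of these data known. Genes of the branches are all reported, and genes named from the longer lists are among those called or among the 3 largest ratios of a list, except Ern1 and Atf6, chosen after their values were seen. Alternatives tried were the scale as deposited, quantile normalization, no floor, a floor at the 65th percentile, the mean of a gene's probe sets and a 2-fold threshold.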

Additional observations from a re-analysis of the deposited data

How the results depend on the processing

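Of the values recomputed under the alternatives, 144 medians, 199 ratios of single genes and 45 counts stayed close to the reported ones. In the same order 6, 24 and 27 moved, and 0 called ratios turned sign. Close means within the noise SD of the comparison, 0.20 to 0.22, or within 1.5-fold for counts. Many branch medians are smaller than that SD. As deposited, every median moved by the shift of the median gene, so its label only sets that shift against the SD. A median that turned sign can thus count as close, as the ATF4 one for indomethacin against IL-1beta did, from 0.13 to -0.02. On the scale as deposited, the medians for IL-1beta against vehicle were 0.39 for the ER chaperones, 0.27 around XBP1, 0.0741 for the ATF4 branch, 0.26 for heat shock and 0.33 for all 35 genes, since the median gene differed by 0.23, and 5 of 30 medians turned sign. Counts there were 5 higher for IL-1beta against vehicle, 0 higher and 2 lower for indomethacin against IL-1beta, 0 higher and 4 lower for iloprost against IL-1beta, 1 lower for indomethacin against vehicle, and 2 higher for iloprost against vehicle. At 2-fold, counts were 0 higher for IL-1beta against vehicle, 0 in either direction for indomethacin against IL-1beta and against vehicle, 0 higher and 1 lower for iloprost against IL-1beta, 1 higher and 2 lower for iloprost against indomethacin, and 3 lower for iloprost against vehicle. With a floor at the 65th percentile the ATF4 median was -0.50 for IL-1beta against vehicle. Counts were then 1 higher for indomethacin against IL-1beta, 0 higher for indomethacin against vehicle, and 1 higher and 2 lower for iloprost against indomethacin. Casp12 was at most -0.20 in the last of these, a bound set by the higher floor. Without a floor, 0 were higher for iloprost against IL-1beta, 1 higher for iloprost against indomethacin, and 1 lower for indomethacin against vehicle. With the mean of a gene's probe sets, 0 were higher for iloprost against IL-1beta and 1 for iloprost against indomethacin, and with quantile normalization 1 was higher for iloprost against indomethacin. The causes of these moves were not tested, apart from the shift of the median gene. Dim genes near the floor (Chac1, Sesn2, Casp12, Trib3) carry the most noise. No paired analysis was possible because each treatment has 1 array.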
